A study of Mus musculus with 8 samples.

Results

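The mouse genes Pi16, Ces1d, Fmo1, Ecrg4, Akr1e1, Cd34 and Dpt, were described in corneas of TGF-beta overexpressing mice (here TGFB) and of wildtype littermates. They were proposed as fibroblast genes with lower signals in TGFB corneas. They were thus chosen by the measured difference between these groups on these arrays, which is given here as a description without a test. Taking all probe sets that the platform annotation assigns to only 1 of these symbols gave 13 probe sets for the 7 genes, out of 45037 probe sets and 18193 genes. Total RNA was measured on 8 one-colour arrays, 4 per group, numbered 1 to 4 within a group by the order of their records. The labels give the source as eye, cornea, and the extraction reagent as TRizol. They name neither the TGF-beta isoform, the promoter, the age of the mice nor whether an array holds 1 animal or a pool, so the spread between arrays may be technical. The name fits the values in part. Of the 7 genes, 6 had a lower mean in TGFB corneas, but Cd34 by little, and Dpt had the higher mean there.

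Fibroblasts that carry Pi16 and Dpt are found around vessels and in loose connective tissue of many organs, where they are regarded as a reserve from which more specialised fibroblasts can form. TGF-beta, a secreted growth factor, moves fibroblasts towards contractile, matrix-producing states. In the cornea the resident stromal fibroblast is the keratocyte, which makes the transparent collagen and proteoglycan matrix, and Cd34 is known as one of its surface markers. Pi16 encodes a peptidase inhibitor of the CAP family, Ecrg4 a secreted peptide precursor and Dpt the matrix protein dermatopontin, which binds decorin. Ces1d, Fmo1 and Akr1e1 encode enzymes of lipid ester, drug and carbonyl metabolism that are also made outside fibroblasts.

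The RefSeq promoter table (GRCm38.p6) held entries for 5 of the 7 genes, and none was matched for Ces1d and Fmo1. Those of Pi16, Ecrg4 and Akr1e1 are shown, which of the 5 had the largest differences between the groups. Each sequence runs 5′ to 3′ up to the base before the RefSeq gene, and capitals mark matches to a searched motif. Pi16 is given as chr17:29318632-29318795 (plus strand, 164 bases), Ecrg4 as chr1:43730352-43730601 (plus strand) and Akr1e1 as chr13:4609165-4609414 (minus strand), the latter pair with 250 bases each.
Pi16: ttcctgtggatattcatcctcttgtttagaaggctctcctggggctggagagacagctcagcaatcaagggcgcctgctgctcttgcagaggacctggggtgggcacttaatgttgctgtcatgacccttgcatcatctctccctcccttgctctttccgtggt
Ecrg4: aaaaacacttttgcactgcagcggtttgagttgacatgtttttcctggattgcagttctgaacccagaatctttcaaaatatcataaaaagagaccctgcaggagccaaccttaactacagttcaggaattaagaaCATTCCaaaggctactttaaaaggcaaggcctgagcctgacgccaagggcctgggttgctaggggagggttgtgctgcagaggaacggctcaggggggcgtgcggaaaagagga
Akr1e1: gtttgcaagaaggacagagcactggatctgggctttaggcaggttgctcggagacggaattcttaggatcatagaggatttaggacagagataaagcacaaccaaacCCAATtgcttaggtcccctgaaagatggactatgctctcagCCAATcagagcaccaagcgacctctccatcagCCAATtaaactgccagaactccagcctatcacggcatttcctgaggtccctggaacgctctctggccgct
Both strands were searched for 5 short motifs: TATAAA, the TATA box; CCAAT, the box named after it; CAGAC, part of elements bound by SMAD proteins; TGANTCA, the AP-1 element; and GGAATG, bound by TEAD factors. The Akr1e1 window held 3 CCAAT matches, where 33.8% of 32851 promoter windows of 250 bases held at least 1. The Ecrg4 window held 1 GGAATG match, on the opposite strand, against 12.6% of such windows. The Pi16 window, and those of Cd34 and Dpt (250 bases each, not shown), held 0 matches to any of the 5. Of windows of 250 bases, 42.2% held CAGAC, 12.4% TATAAA and 6.75% TGANTCA, and of windows of 164 bases 30.9% held CAGAC. A match is a description of these letters and no evidence of binding.

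The arrays held transcripts of other tissues, and wildtype 4 stood apart. The corneal keratin Krt12 had signals from 289 to 5766 and the keratocyte gene Kera from 2073 to 8110, so corneal markers were present on every array, with Krt12 lowest in TGFB 1 and wildtype 4. The epidermal keratin Krt10 was at 8494 to 11198 in TGFB 1, TGFB 2 and wildtype 2 and at 140 to 409 elsewhere. Wildtype 4 had a 3'/5' Gapdh probe ratio of 6.41, a sign of degraded RNA, where the other arrays had 2.19 to 4.31. Differences below are TGFB minus wildtype on the log2(signal + 16) scale, which understates the change of dim genes, with the moderated standard error (SE) of limma, and group means are ± SD with n = 4. In a whole cornea, fewer cells of a type and less RNA per cell cannot be told apart.

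Among the secreted products, Pi16 had signals of 69.3, 139, 80.5 and 60.9 in TGFB 1 to 4 and of 911, 601, 1024 and 72.5 in wildtype 1 to 4 (probe set 1453839_a_at). Wildtype 1 to 3 were far above every TGFB array, while wildtype 4 lay inside the TGFB range. The group means were 6.64 ± 0.45 and 8.90 ± 1.66, a log2 difference of -2.27 (SE 0.71), and without wildtype 4 the difference was -3.08 (SE 0.28). The second probe set, 1422026_at, was dim, at 1.12 to 4.34 in TGFB arrays and at 85.5, 7.44, 50.2 and 2.81 in wildtype arrays. It gave -1.17 (SE 0.49), and -1.55 (SE 0.43) without wildtype 4, which again lay within the TGFB range.

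Ecrg4 was measured by 3 probe sets, and for each of them all TGFB arrays lay below all wildtype arrays. The brightest, 1460049_s_at, had signals of 469, 687, 722 and 965 on the TGFB arrays against 3764, 1507, 1916 and 2126 on the wildtype arrays. Wildtype 1 was the highest, and wildtype 4 was the second highest and stood with its group. The log2 difference was -1.65 (SE 0.30), and -1.66 (SE 0.35) without wildtype 4. Probe set 1423261_at gave -1.52 (SE 0.29), with 240 to 334 on the TGFB arrays against 597 to 1600 on the wildtype arrays. Probe set 1440780_x_at gave -1.02 (SE 0.23), with 53.7 to 108 against 151 to 267.

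Dpt, unlike the other 6 genes, had a higher TGFB mean. Its signals were 3844, 2602, 1595 and 1714 on the TGFB arrays against 1960, 2196, 994 and 2058 on the wildtype arrays. The groups overlapped, with TGFB 1 and TGFB 2 highest and wildtype 3 lowest, so neither group lay above the other. The log2 difference was 0.41 (SE 0.34), and 0.49 (SE 0.38) without wildtype 4. Without the 3 arrays with high Krt10, among them TGFB 1 and TGFB 2, it was 0.06.

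The surface sialomucin Cd34 was bright on every array, at 1251, 1250, 1292 and 1145 on the TGFB arrays against 1696, 1411, 1330 and 1290 on the wildtype arrays. TGFB 1, TGFB 2 and TGFB 4 lay below the lowest wildtype array, and TGFB 3 and wildtype 4 were almost equal. The means were 10.29 ± 0.07 and 10.49 ± 0.17, a log2 difference of -0.20 (SE 0.13), the smallest of the 7 genes in size. Its relatives Podxl2 and Podxl, sialomucins of the same family, gave -0.50 (SE 0.15) and -0.55 (SE 0.30). For Podxl2 the TGFB arrays (126 to 184) all lay below the wildtype arrays (196 to 253), but neither gene passed the test across all genes (limma adjusted p = 0.639 and 0.767).

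Of the 3 enzymes, the carboxylesterase Ces1d had signals of 3.24, 4.12, 0.335 and 5.47 on the TGFB arrays against 157, 136, 217 and 7.42 on the wildtype arrays (probe set 1435370_a_at). All TGFB arrays and wildtype 4 were below 16, the offset used for the log scale, and only the other wildtype arrays were above it. The log2 difference was -2.51 (SE 0.63), and -3.25 (SE 0.18) without wildtype 4. Probe set 1449081_at gave -1.77 (SE 0.50) and -2.34 (SE 0.20), with 3.30 to 14.8 in TGFB arrays, 84.1 to 119 in wildtype 1 to 3 and 7.85 in wildtype 4. Probe set 1435371_x_at gave -1.01 (SE 0.27) and -1.25 (SE 0.20), with 0.946 to 10.5 in TGFB arrays, 27.4 to 41.8 in wildtype 1 to 3 and 8.39 in wildtype 4. All 3 probe sets therefore placed wildtype 4 with, or just above, the TGFB arrays.

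The flavin monooxygenase Fmo1, which oxidises nitrogen and sulfur groups of drugs, had signals of 243, 216, 110 and 143 on the TGFB arrays against 514, 497, 479 and 332 on the wildtype arrays. The groups did not overlap, and wildtype 4 was the lowest of its group. The log2 difference was -1.32 (SE 0.25), and -1.46 (SE 0.25) without wildtype 4. Akr1e1, an aldo-keto reductase that reduces anhydrofructose, had signals of 76.3, 116, 90.1 and 75.2 against 247, 201, 191 and 147 (probe set 1417826_at), again without overlap and with wildtype 4 lowest. Its log2 difference was -1.01 (SE 0.19), and -1.13 (SE 0.18) without wildtype 4. Its second probe set, 1446483_at, was dim and overlapped, at 17.3 to 27.2 on the TGFB arrays against 26.4 to 58.3 on the wildtype arrays, with a difference of -0.46 (SE 0.20).

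**Figure D1:**
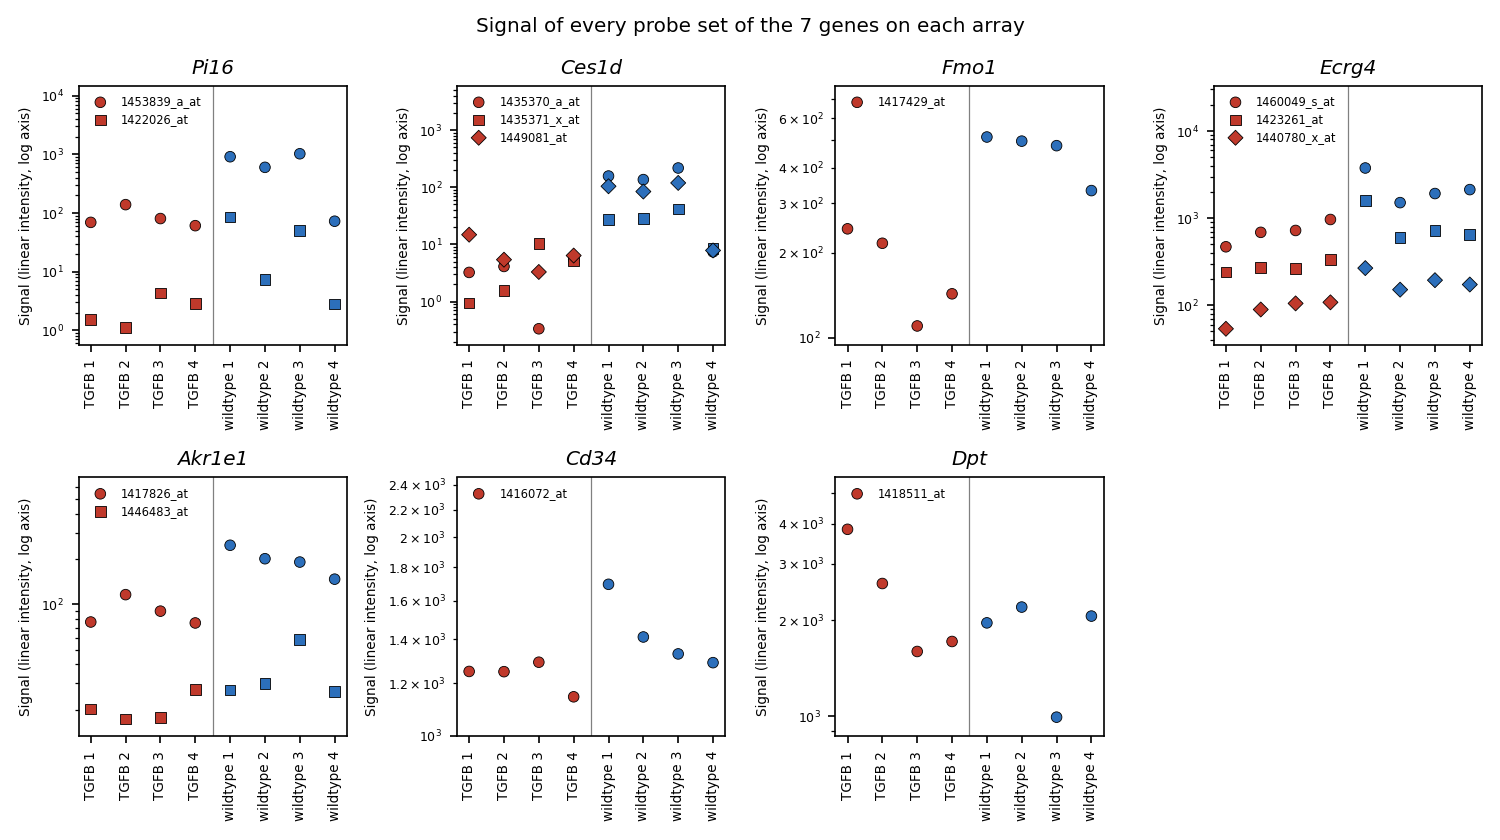
Signal (linear intensity, log axis) of each of the 13 probe sets on each array, by gene, with TGFB arrays in red, wildtype arrays in blue and a marker shape per probe set. For Pi16 and Ces1d wildtype 4 sits with or just above the TGFB arrays, for Ecrg4 and Fmo1 the groups do not overlap, and for Dpt they mix.

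Over the 13 probe sets, 12 had a lower TGFB mean, and for 6 the groups did not overlap. For 7 of the 13 wildtype 4 lay within the TGFB range. At 1 probe set per gene the groups did not overlap, with TGFB lower, for 4 of the 7 genes (Ces1d, Fmo1, Ecrg4 and Akr1e1), where 2.45% of all genes were so and 1.49% had TGFB higher without overlap. Without wildtype 4 it was 6 genes, against 7.68% of all genes, with 4.77% higher. The median log2 difference over the 7 genes was -1.32, and -1.46 without wildtype 4, beside medians over all genes of -0.014 and -0.018. The genes were chosen for this difference, so nothing is read from these counts.

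**Figure D2:**
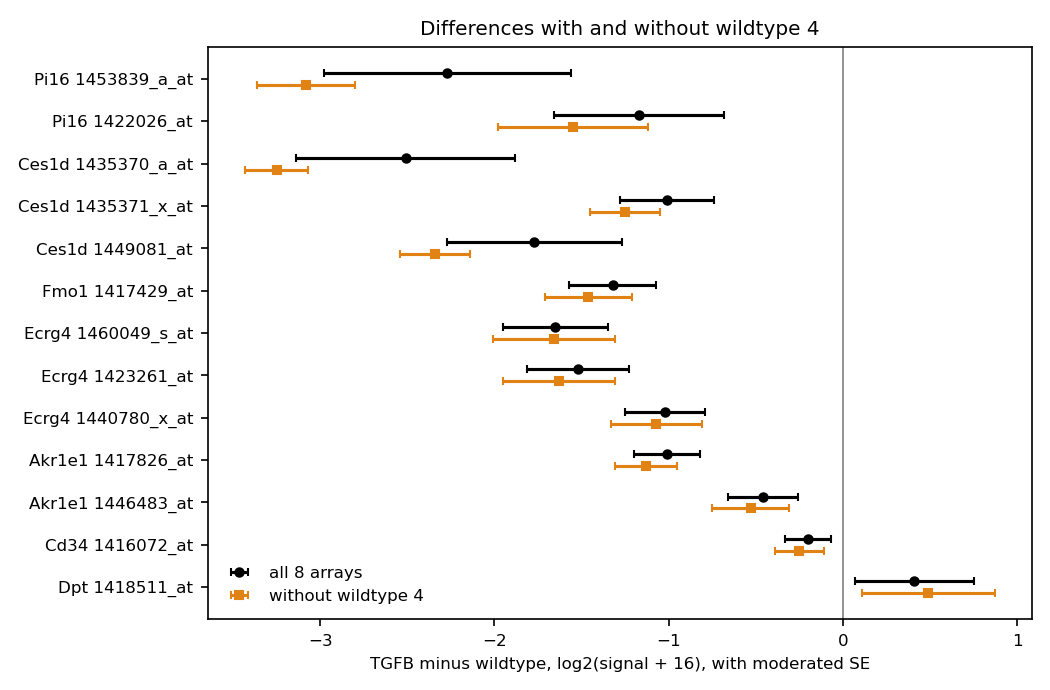
TGFB minus wildtype difference on the log2(signal + 16) scale for each probe set, with all 8 arrays (black) and without wildtype 4 (orange); bars are the moderated SE. Leaving out wildtype 4 moved Pi16 from -2.27 to -3.08 and Ces1d from -2.51 to -3.25, and left Ecrg4 at -1.65 and -1.66.

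Across all genes limma called 0 genes lower and 0 higher in TGFB corneas at adjusted p under 0.05 (0% each way), with 805 lower (4.42%) and 483 higher (2.65%) at unadjusted p under 0.05. Without wildtype 4 it called 2 genes lower (0.011%) and 0 higher, and at unadjusted p 1484 lower (8.16%) and 818 higher (4.5%). The 2 genes were Ces1d and Pi16, which were chosen by this difference, so these calls are a description and not independent evidence. The genes below are no members, were listed with earlier results of these data known, and have limma adjusted p from 0.623 to 0.998 with all 8 arrays.

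Of 34 other markers of fibroblasts with Pi16 and Dpt, 29 were measured and none passed the threshold. A lower TGFB mean was seen for 20 of them (69.0%, against 52.6% of all genes), with a median log2 difference of -0.25 beside -0.014 over all genes. At unadjusted p under 0.05 there were 5 lower and 1 higher. Without wildtype 4 there were 11 lower and 2 higher, and the median was -0.38. The guidance molecule Sema3c had signals of 940, 870, 852 and 879 on the TGFB arrays against 1847, 1778, 1763 and 1043 on the wildtype arrays, with no overlap but wildtype 4 close to the TGFB arrays. Its log2 difference was -0.81 (SE 0.19). The microfibril gene Mfap5 had 1041, 616, 843 and 772 against 2451, 2093, 1584 and 1033, a difference of -1.07 (SE 0.28). The binding protein Igfbp6 had 134, 78.6, 106 and 98.6 against 320, 300, 252 and 122, a difference of -1.08 (SE 0.29). For Mfap5 and Igfbp6, as for Pi16, wildtype 4 alone of its group lay within the TGFB range. The transcription factor Ebf1 had a higher mean, with 162 to 208 on the TGFB arrays against 116 to 186 on the wildtype arrays (0.49, SE 0.18). These 4 genes were named for the smallest p in the list. Beside the 20 genes with lower means, others were higher too, among them Pcolce2 (0.55), Has1 (0.41) and Tnfaip6 (0.27), named after their values were seen.

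General fibroblast genes had a median near 0. All 28 listed genes were measured, 18 with a lower TGFB mean (64.3%, against 52.6% of all genes), and their median was -0.08, or 0.09 without wildtype 4. At unadjusted p 1 was lower and 0 higher, and without wildtype 4 the counts were 0 and 4. The procollagen enhancer Pcolce gave -0.49 (SE 0.19), decorin (Dcn) -0.34 (SE 0.16), the protease Fap -0.51 (SE 0.28) and fibulin Fbln2 0.64 (SE 0.31). For Dcn the other probe set did not share this sign, and the difference was -0.20 (SE 0.13) without wildtype 4. Genes of activated fibroblasts had a median of 0.14 over 20 measured of 22, with 2 lower and 2 higher at unadjusted p. Tenascin C (Tnc) gave 1.28 (SE 0.41), the metalloprotease Adam12 0.44 (SE 0.18), the calponin Cnn1 -1.40 (SE 0.54) and Cthrc1 -0.56 (SE 0.24). Without wildtype 4 the activated list had 7 higher and 2 lower and a median of 0.29. Of 14 keratocyte markers 13 had a lower mean (92.9%, against 52.6% of all genes), with a median of -0.50 and 4 lower and 0 higher at unadjusted p. Without wildtype 4, 11 had a lower mean, the median was -0.40 and the counts were 6 and 0. Ogn, Mme and B3gnt7 lay near 0, at -0.05, -0.03 and 0.04. Transketolase (Tkt) gave -0.93 (SE 0.27), the prostaglandin synthase Ptgds -1.67 (SE 0.57), Aldh1a1 -1.07 (SE 0.43) and the sulfotransferase Chst1 -0.45 (SE 0.20). Some lists share genes, so their counts are not independent. Of the keratocyte markers, Lum and Dcn are also counted as general fibroblast genes, and Aldh1a1 and Cyp1b1 in the metabolism list below. Aldh3a1, the lowest keratocyte marker at -2.05, is also counted as a corneal epithelial marker.

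The enzyme members stood beside a list of drug and aldehyde metabolism genes. Of 30 listed genes 29 were measured, 26 with a lower TGFB mean (89.7%, against 52.6% of all genes, or 52.9% without wildtype 4), and the median was -0.42. At unadjusted p 8 were lower and 0 higher, and without wildtype 4 the counts were 12 and 0. The retinaldehyde dehydrogenase Aldh1a2 had signals of 227, 186, 201 and 265 on the TGFB arrays against 486, 364, 386 and 330 on the wildtype arrays, a difference of -0.79 (SE 0.17). The alcohol dehydrogenase Adh7 had 20.9, 36.1, 22.9 and 19.4 against 69.8, 118, 66.5 and 45.3, a difference of -1.11 (SE 0.24). The epoxide hydrolase Ephx2 gave -0.96 (SE 0.29) and the glutathione transferase Gsta4 -1.32 (SE 0.43). These 4 were named for the smallest p in the list, and all had every TGFB array below every wildtype array. No other gene of the 29 did, where 2.45% of all genes did. None of the 4 passed (limma adjusted p from 0.623 to 0.661).

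**Figure D3:**
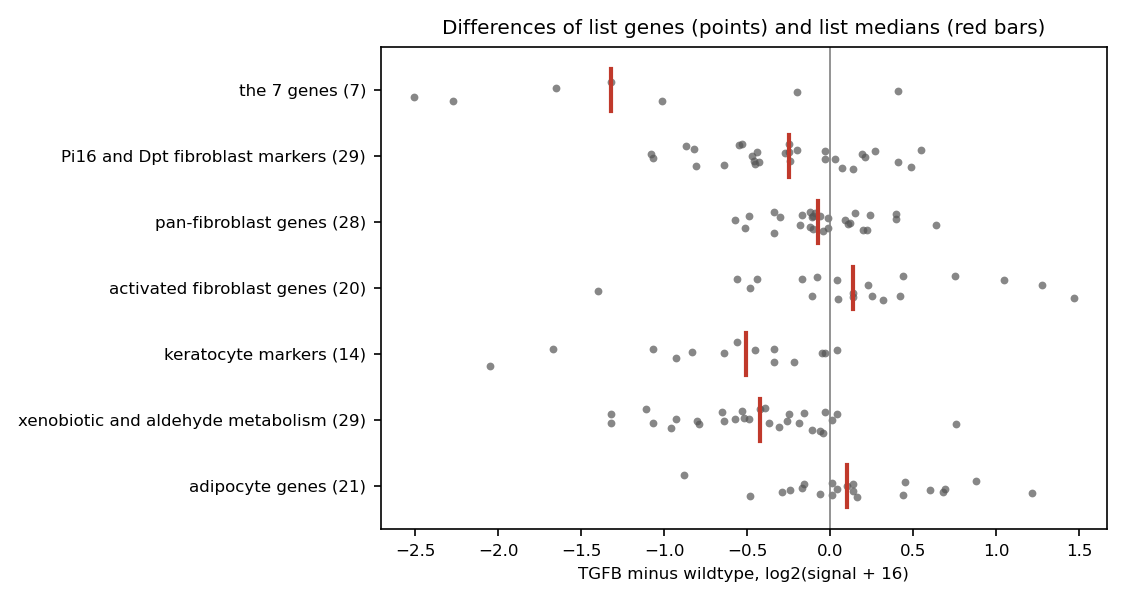
TGFB minus wildtype difference on the log2(signal + 16) scale with all 8 arrays, for the 7 genes and for the measured genes of 6 lists; each point is a gene, the red bar the median, and the vertical scatter within a list has no meaning. Medians run from -1.32 for the 7 genes, which were chosen for it, to 0.14 for activated fibroblast genes.

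Close relatives of the enzyme members were mostly dim or mixed. Of 17 other carboxylesterases 12 were measured, 6 of them below a signal of 16 on every array, among them Ces1c and Ces1e, which lie on either side of Ces1d. The list median was at 0, with 1 gene lower at unadjusted p, Ces2b (-0.62, SE 0.23), and Ces5a, Ces2e and Ces1h gave -0.44, -0.33 and 0.19. The monooxygenase genes next to Fmo1 had higher TGFB means, with Fmo4 at 0.45 (SE 0.21) and dim, and Fmo2 at 0.33 (SE 0.58). Fmo2 had 116, 206, 33.9 and 17.4 on the TGFB arrays against 59.5, 89.1, 48.0 and 22.9 on the wildtype arrays, highest where Krt10 was high. Fmo5 gave -0.23 (SE 0.13). Of 16 other aldo-keto reductases 14 were measured, with a median of -0.02 and 2 lower at unadjusted p, Akr7a5 (-0.34, SE 0.13) and Akr1c13 (-0.87, SE 0.38). Akr1b8 gave 0.56 (SE 0.26) and Akr1d1 0.72 (SE 0.51). Akr1d1 had 49.4, 51.5 and 23.8 on TGFB 1, TGFB 2 and wildtype 2, where Krt10 was high, and lay below 16 elsewhere. The CAP relatives of Pi16 were dim or mixed too. Of 11 listed, 9 were measured, with 2 lower and 1 higher at unadjusted p. Glipr1l1 and Crisp2 (-0.39 and -0.45) were below 16 on every array, Glipr1 gave 0.90 (SE 0.35) and Crispld2 -0.95 (SE 0.45).

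Genes next to the members on the chromosome, 13 of 14 of them measured, had no common direction. Beside the Ces1 and Fmo genes already given, Mtch1 next to Pi16 had -0.43 (SE 0.16) without overlap of the groups. Nck2 and Uxs1 around Ecrg4 had -0.17 and -0.23, and Akr1c21 and Klf6 around Akr1e1 had 0.15 and 0.16. Plxna2 and Cd46 around Cd34 had -0.20 and 0.02, and Atp1b1 and Xcl1 around Dpt had -0.21 and -0.19. Of the other probe sets, 0 of 2 for Uxs1 and 1 of 4 for Atp1b1 had the same sign.

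Markers of other tissues varied between the arrays too, some lists with lower and some with higher TGFB means. All 9 pigment cell markers had lower TGFB means, where 52.6% of all genes did, with a median of -1.70. At unadjusted p 6 were lower (66.7%, against 4.42% of all genes). The summed signal of the pigment cell markers was 3479 to 15509 on the TGFB arrays against 15076 to 34389 on the wildtype arrays, with wildtype 4 the lowest of its group. Oca2 had 28.7 to 87.8 on the TGFB arrays against 1164, 326, 816 and 98.8 on the wildtype arrays, and Mlana 68.2 to 190 against 3215, 678, 1552 and 179, so wildtype 4 was near or within the TGFB range, as for Pi16. Trpm1 and Tyrp1 gave -1.88 and -1.70. Wildtype 2, TGFB 3 and TGFB 4 had like pigment sums of 15785, 15286 and 15509. Like sums did not mean like levels of each marker, as Oca2 was at 326, 87.8 and 60.2 and Mlana at 678, 190 and 175. Other tissues differed too, with cornified epidermis sums of 24637, 1083 and 1049 and lens sums of 221, 4033 and 24605. On these arrays, in this order, Pi16 was at 601, 80.5 and 60.9, Ces1d at 136, 0.335 and 5.47, and Fmo1 at 497, 110 and 143. Ecrg4 was at 1507, 722 and 965, Akr1e1 at 201, 90.1 and 75.2, Cd34 at 1411, 1292 and 1145, and Dpt at 2196, 1595 and 1714. Wildtype 4, with a sum of 15076, had Pi16 and Ces1d at 72.5 and 7.42. All 7 genes were thus higher in wildtype 2 than in TGFB 3 and TGFB 4, Cd34 by little, and Dpt in the direction opposite to its group means. These 4 arrays were picked after their values were seen, are not matched in their tissue content and give no test.

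**Figure D4:**
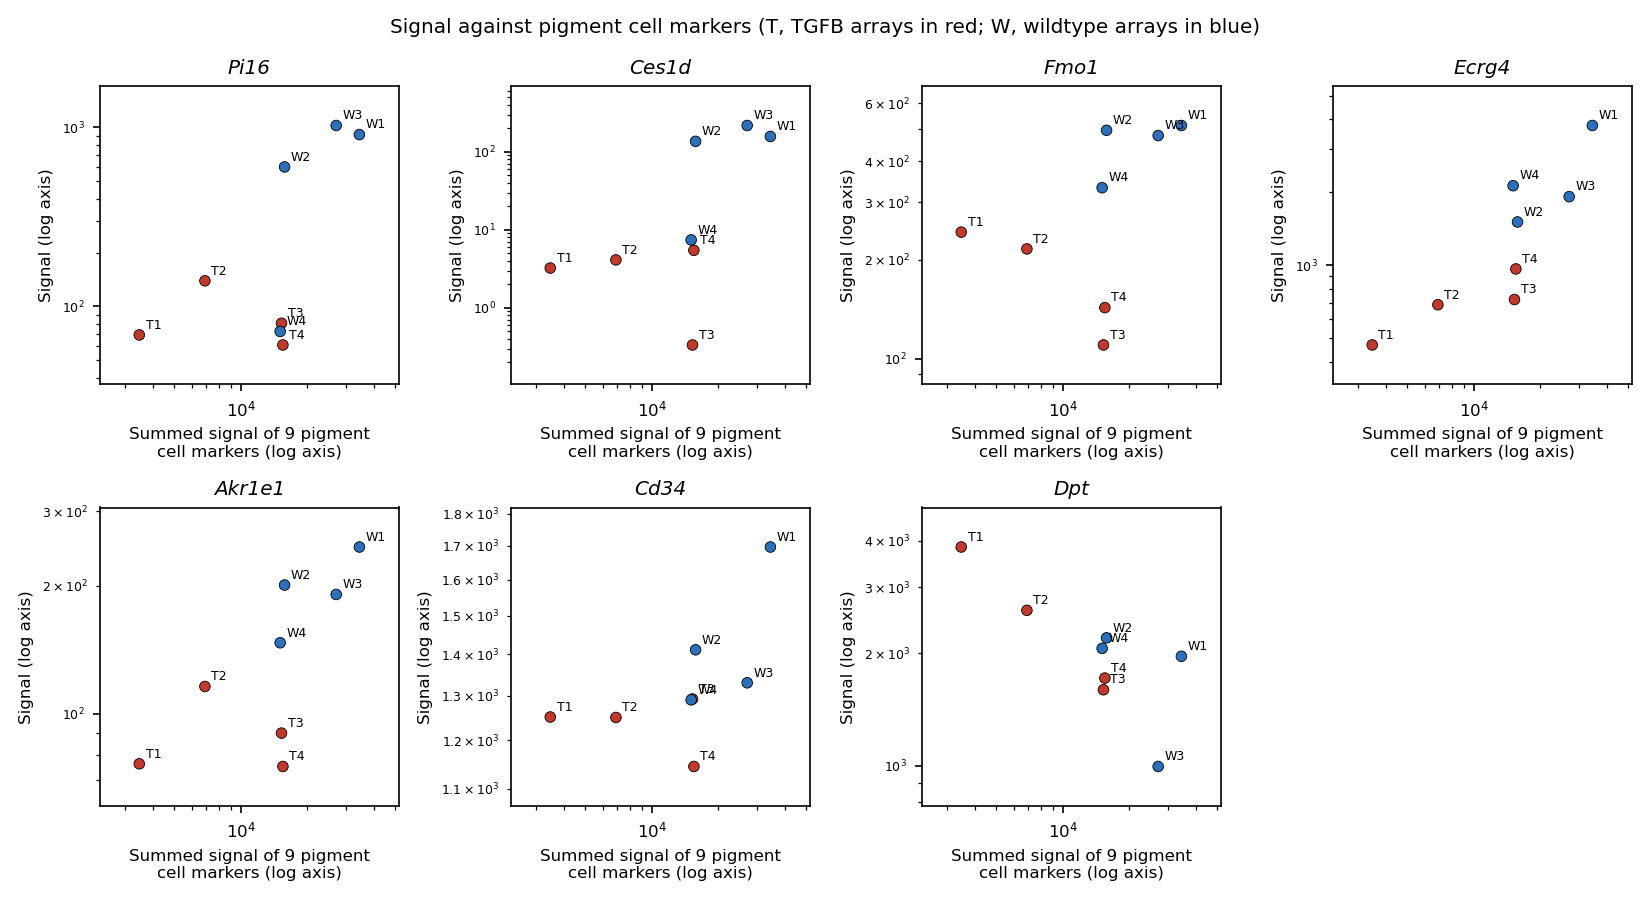
Signal of each of the 7 genes against the summed signal of 9 pigment cell markers on each array, both on log axes, with TGFB arrays T1 to T4 in red and wildtype arrays W1 to W4 in blue. At sums between 15076 and 15785, W2 lies above T3 and T4 in every panel, and W4 lies above them for Fmo1, Ecrg4, Akr1e1 and Dpt but near them for Pi16, Ces1d and Cd34. Like sums do not mean like levels of each marker or of other tissues.

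Retina markers (8 measured of 9) had a summed signal of 165 to 651 on the TGFB arrays against 441 to 4282 on the wildtype arrays. Their median was -0.75, or -0.24 without wildtype 1, with Prph2 below 16 throughout. Guca1a gave -0.85 (SE 0.18), Sag -2.35 (SE 0.91), Rlbp1 -1.92 (SE 0.74) and Pde6b -0.65 (SE 0.33). Sag was highest in wildtype 1 (1892), while wildtype 4 (30.1) lay within the TGFB range. Pde6b was below 16 on every array but wildtype 1 (47.3). Lens markers ran from 115 to 24605 and from 221 to 33550, with a median of -0.95 over 10 genes. Skeletal muscle markers summed to 19043 to 29855 and 26639 to 33034, and all 10 had lower means, where 52.6% of all genes did. Their median was -0.44, or -0.17 without wildtype 1 and -0.72 without wildtype 4. Pvalb gave -1.76 (SE 0.68), while Acta1, Ckm and Tnnc2 lay near 0, at -0.03, -0.07 and -0.14. Schwann cell markers (5 of 8 measured) summed to 2126 to 2433 and 2246 to 3748, with S100b at -1.22 and Egr2 at 1.37. Macrophage markers summed to 2356 to 3557 and 2837 to 6039, with a median of -0.35 and Adgre1 at -0.90 (SE 0.25). The part of these tissues in the lower signals of the 7 genes was not tested.

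Endothelial markers, given because vessels also carry Cd34, summed to 1829 to 2268 on the TGFB arrays against 1861 to 3244 on the wildtype arrays. Of 12 genes 9 had a lower mean (75.0%, against 52.6% of all genes), with a median of -0.15. Cldn5 gave -0.71 (SE 0.22) and Emcn -0.54 (SE 0.21). Fat cells also carry Ces1d. Adipocyte genes (21 of 24 measured) summed to 5782 to 9074 and 5301 to 12310, with a median of 0.10 and 0 lower and 1 higher at unadjusted p (Fasn, 0.45). The adipocyte genes Cidec, Lep, Retn, Pck1 and Aqp7 were below 16 on every array, and Fabp4 had 674 to 1545 on the TGFB arrays against 255 to 916 on the wildtype arrays. Mast cell markers had a median of 0.24 (478 to 2536 in wildtype and 524 to 3709 in TGFB arrays). Cartilage markers had a median of 0.04 (1195 to 3604 on the TGFB arrays against 1433 to 3550 on the wildtype arrays). Cornified epidermis markers had a median of 1.63, with sums of 1049 to 45220 on the TGFB arrays against 712 to 24637 on the wildtype arrays. Corneal epithelial markers had a median of 0.30, with 4 higher and 0 lower at unadjusted p, with Epcam at 1.38 (SE 0.33) and Krt14 at 1.10 (SE 0.30). Of the 11 genes 5 had a lower mean, and Aldh3a1 at -2.05, Upk1b at -1.65 and Pax6 at -1.06, named after their values were seen, lay furthest below 0. Without wildtype 4 the median was 0.02, with 4 higher and 2 lower.

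Within groups the 7 genes varied together in part. In deviations from the group means over the 8 arrays, Pearson r was 0.95 between Pi16 and Ces1d, 0.79 between Pi16 and Akr1e1 and 0.74 between Akr1e1 and Cd34. Wildtype 4 was far below its group for both Pi16 (72.5 against 601 to 1024) and Ces1d (7.42 against 136 to 217). The r of 0.95 therefore rests largely on this array, and r was not computed without it. Over all 8 arrays r was 0.10 between Pi16 and Ecrg4, -0.28 between Fmo1 and Ecrg4 and -0.26 between Pi16 and Dpt. A profile was made as the mean of the members' standardised deviations. The genes outside the list most like this profile were Nabp2 (r = 0.992), Rhbdd1 (0.991), Trim21 (0.985), Ppm1b and Dhrs7b (0.984 each), Pcid2 and Sptbn1 (0.983 each) and Gask1b (0.981), all highest in wildtype 1 and lowest of their group in wildtype 4. The members' own r to this profile ran from 0.20 (Dpt) and 0.29 (Ecrg4) to 0.87 (Akr1e1), so it stands for some of them poorly. Of 18193 genes, 332 outside the list had an r above 0.9 over the 8 arrays, so the 8 named are among many. The 8 points behind each r share their libraries, and the group differences of these 8 genes lay between -0.38 and 0.09.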

How the data were processed

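Values are intensities per probe set on a linear scale, as the authors deposited them. The tool that made them is not given in the sources used here, and the 2% trimmed mean of the deposited intensities is 150 on each array. No further normalization was applied. The number of arrays limits the precision. After 64 control probe sets were left out, a 2016 platform annotation gave 34945 probe sets 1 symbol, 932 several and 9160 none used here. By Entrez ID 34741 matched RefSeq (GRCm38.p6). Where a gene had several probe sets, the one with the largest log2(signal + 16), averaged over the 8 arrays with groups ignored, stood for it. Groups were compared with limma 3.58.1 (R 4.3.3, lmFit and eBayes, 9.03 total degrees of freedom) over 18193 genes with Benjamini-Hochberg adjustment. Other probe sets of a gene come from the same fit over 45037 probe sets. On simulated data of this comparison (18193 genes, 10 simulations of 200 changed genes) the test recovered 48.1% of 2-fold, 88.2% of 4-fold and 95.2% of 8-fold changes, and 4.38% of calls were false. The simulated noise was normal, independent between genes and equal in both groups, with no array standing apart. These shares therefore need not hold for the real arrays, where wildtype 4 stood apart and other tissues were present.

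Members and lists were chosen with earlier results of these data known. Named were all probe sets of the members, up to 4 genes of smallest p per list, all measured CD34 and flavin monooxygenase relatives, the 8 genes most like the members, chromosomal neighbours and sample markers. Rgr was named after its value was seen. Alternatives covered the filter (probe sets above the 40th percentile), the scaling (quantile or median) and the offset (1 or 32). They also covered the unit (mean of probe sets, or each fitted alone), the variance model (trend, robust or array weights) and the arrays kept. Where each was fitted alone, the median difference over a gene's probe sets stood for the gene. Figures were drawn with matplotlib 3.10.9.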

Additional observations from a re-analysis of the deposited data

Results flagged for a closer look

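In groups of 4 arrays, the gap of the highest or lowest array to its nearest neighbour was divided by the range of the group on the log2(signal + 16) scale and held against Dixon's 95% critical value. Of 26 such sets of arrays (13 probe sets in both groups), 3 exceeded it, and chance gives about 1 in 20. Wildtype 4 was the lowest for Fmo1 (a signal of 332 against 479 to 514, ratio 0.834). Wildtype 3 was the highest for the dim probe set 1446483_at of Akr1e1 (58.3 against 26.4 to 29.8, ratio 0.863) and the lowest for Dpt (994 against 1960 to 2196, ratio 0.856).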

How the results depend on the processing

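Over 20 alternative settings, the log2 difference stayed below 0 for Pi16 (-3.08 to -1.72), Ces1d (-4.42 to -1.76), Fmo1 (-1.67 to -1.13), Ecrg4 (-1.83 to -1.28), Akr1e1 (-1.13 to -0.73) and Cd34 (-0.25 to -0.12), and above 0 for Dpt (0.06 to 0.62). The offset of 1 gave the -4.42 of Ces1d, and the dim second probe set of Akr1e1 enters the -0.73. These ranges hold 1 value per gene and setting, and single probe sets lay outside them. With all 8 arrays, 1422026_at of Pi16 gave -1.17 and 1435371_x_at of Ces1d -1.01. Probe set 1440780_x_at of Ecrg4 gave -1.02 and 1446483_at of Akr1e1 -0.46. The median over the 7 genes ran from -1.56 to -1.13, and from -1.47 to -1.13 with single arrays left out. Genes called lower were 0 with all arrays, 0 to 2 with single arrays left out (2 without wildtype 4) and 3 without wildtype 1 and wildtype 4 (Ces1d, Rgr and Sag, the latter pair genes of the retina and its pigment epithelium). Genes called higher were 0 in every setting. The median of the Pi16 and Dpt fibroblast list ran from -0.43 to -0.21 and that of the metabolism list from -0.50 to -0.30. Medians of pan-fibroblast (-0.15 to 0.09), activated fibroblast (-0.03 to 0.46), aldo-keto reductase (-0.19 to 0.03), carboxylesterase (-0.12 to 0.15), flavin monooxygenase (-0.37 to 0.59) and CAP genes (-0.50 to 0.01) crossed 0, as did those of lens (-2.28 to 0.38), cornified (-0.14 to 2.71), corneal epithelial (-0.18 to 0.59), mast cell (-0.38 to 0.58), cartilage (-0.03 to 0.46) and macrophage markers (-0.59 to 0.16). Medians of retina (-1.58 to -0.24, with -1.58 at the offset of 1), muscle (-0.72 to -0.17) and pigment cell markers (-1.98 to -1.03) stayed below 0. No paired analysis was possible because the labels number the arrays without pairing them across groups. Signals below 16 on the TGFB arrays limit how low Ces1d can be read.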
